A study of Mus musculus with 12 samples.

Results

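Myosin heavy chains are the motor subunits of muscle and nonmuscle myosin II. The transcripts of 6 of their genes, Myh6, Myh7, Myh7b, Myh9, Myh10 and Myh11, were taken by name from 2 tables of gene expression in mouse heart, each of which held 20775 genes, and all 6 were present in both. The tables came from a study of MED30, a subunit of the Mediator complex through which transcription factors act on RNA polymerase II, and every comparison was made within a table, between 3 knockout and 3 control (Ctrl) samples. At the embryonic stage E10.5 whole hearts were taken from embryos that lacked Med30 in cardiomyocytes (MED30-cKO, Med30 f/f with Tnnt-Cre, which is driven by the cardiac troponin T promoter) and from Cre-negative littermates. At 4 weeks after tamoxifen, at an age of 3 months, cardiomyocytes were isolated from MED30-icKO mice (Med30 f/f with αMHC-MerCreMer) and from Med30 f/f mice without the transgene. Both Ctrl groups are labelled wild type, all mice carry the strain label C57BL/6, and all 4-week samples are labelled as collected after tamoxifen. Both knockouts used the same floxed allele, from which Cre removes exon 1 of Med30. The tamoxifen-dependent Cre was itself driven by the promoter of Myh6 (αMHC is the protein name of Myh6), and the effects of Cre and of Med30 loss cannot be told apart in these groups because no Cre-positive sample with intact Med30 was analysed here.

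Each heavy chain carries the ATPase motor head and a coiled-coil tail through which the molecules pack into filaments. In the mouse ventricle the slow β-isoform, MYH7, is the embryonic form and is largely replaced around birth by the fast α-isoform, MYH6, while a return of Myh7 is a familiar sign of stress in the adult heart. Myh7b is a related slow-type gene that is transcribed in heart although little of its protein is made there. Myh9 and Myh10 encode the nonmuscle heavy chains IIA and IIB, which act in the cell cortex, adhesion and cell division, and Myh11 encodes the smooth muscle heavy chain.

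On the mouse genome (GRCm38, GENCODE vM21) Myh6 lies on the minus strand of chromosome 14 from 54941921 to 54966927, and Myh7 lies just upstream of it on the same strand from 54970684 to 54994626. Myh7b is on chromosome 2 (155611212 to 155634307, plus strand), Myh9 on chromosome 15 (77760587 to 77842175, minus strand), Myh10 on chromosome 11 (68691559 to 68816632, plus strand) and Myh11 on chromosome 16 (14194535 to 14291372, minus strand). Their longest coding transcripts span 39 (Myh6) to 42 (Myh7b) exons and are 6113 (Myh6) to 7791 (Myh10) bases long.

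Each of the 3 cardiac genes holds a microRNA in an intron, and the tables list neither these microRNAs nor Mhrt, a long noncoding RNA that overlaps Myh7. The mature sequences from RefSeq (GRCm38.p6) are shown because all 3 hosts fell in the knockout at 1 or both stages. Capitals mark the seed, bases 2 to 8. miR-208a lies in intron 29 of Myh6 (chr14:54949072-54949093, minus strand), miR-208b in intron 31 of Myh7 (chr14:54975710-54975731, minus strand) and miR-499 in intron 19 of Myh7b (chr2:155622893-155622913, plus strand).
mmu-miR-208a-3p: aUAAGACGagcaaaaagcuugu
mmu-miR-208b-3p: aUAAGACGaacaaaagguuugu
mmu-miR-499-5p: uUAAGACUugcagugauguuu
The Myh6 and Myh7 microRNAs share the seed UAAGACG, and that of Myh7b, UAAGACU, differs from it in its last base. Values of the hosts say nothing directly about the levels of the microRNAs, which were not measured in these tables.

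Myh6 and Myh7 are close copies, which bears on how far their reads can be told apart. Their coding sequences were identical at 91.8% of 5799 aligned bases, while Myh6 and Myh7b were identical at 73.5% of 5755. Of all stretches of 50 bases in the Myh7 coding sequence, 23.9% also occur in Myh6. No other member shared a stretch of 50 coding bases with Myh6, Myh7 or Myh7b, and Myh9 and Myh10 shared 1.25% of the stretches of Myh9. The longest identical run between Myh6 and Myh7 was 245 coding bases (bases 4246 to 4490 of the Myh6 and 4240 to 4484 of the Myh7 coding sequence), in the part that encodes the tail. It is shown because a read that lies wholly within it cannot be assigned to either gene.
Myh6 and Myh7: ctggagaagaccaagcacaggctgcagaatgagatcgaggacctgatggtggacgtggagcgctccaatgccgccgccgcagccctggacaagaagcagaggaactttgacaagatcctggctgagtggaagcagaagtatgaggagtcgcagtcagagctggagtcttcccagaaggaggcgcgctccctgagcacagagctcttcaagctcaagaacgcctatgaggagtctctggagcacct
The 60 aligned bases that differed most (from base 3226 in Myh6 and 3220 in Myh7) had 27 differences, here in capitals, and show where a read separates them.
Myh6: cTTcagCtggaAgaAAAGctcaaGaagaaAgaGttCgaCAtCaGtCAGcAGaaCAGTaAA
Myh7: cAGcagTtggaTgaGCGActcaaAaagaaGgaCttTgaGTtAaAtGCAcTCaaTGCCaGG
How reads that fit both genes were counted is not given in the sources used here, so a small Myh7 value beside a very high Myh6 value is the least certain of the values below.

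The bases just before the RefSeq start sites of the 3 cardiac genes are shown because Myh7 and Myh7b fell at both stages and Myh6 at 1 of them. Each is 250 bases from RefSeq (GRCm38.p6), on the strand of the gene (chr14:54966608-54966857, minus strand, for Myh6, chr14:54994627-54994876, minus strand, for the upstream of 2 listed starts of Myh7, and chr2:155610993-155611242, plus strand, for Myh7b). The RefSeq starts of Myh6 (54966607) and Myh7b (155611243) lie inside the GENCODE genes given above, so the Myh6 window lies within that gene and the Myh7b window in part. Capitals mark matches, searched on both strands, to 4 motifs that do not overlap in these windows. They were the core of the MCAT element, which TEAD factors bind (GGAATG), the core that GATA factors bind (AGATAA), the core that MEF2 factors bind (TAAAAATA) and the classical TATA box (TATAAA).
Myh6: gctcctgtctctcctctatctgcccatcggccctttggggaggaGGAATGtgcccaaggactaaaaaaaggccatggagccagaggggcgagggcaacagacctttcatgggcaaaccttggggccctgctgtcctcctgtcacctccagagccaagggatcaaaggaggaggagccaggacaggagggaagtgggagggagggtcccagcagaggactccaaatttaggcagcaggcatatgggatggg
Myh7: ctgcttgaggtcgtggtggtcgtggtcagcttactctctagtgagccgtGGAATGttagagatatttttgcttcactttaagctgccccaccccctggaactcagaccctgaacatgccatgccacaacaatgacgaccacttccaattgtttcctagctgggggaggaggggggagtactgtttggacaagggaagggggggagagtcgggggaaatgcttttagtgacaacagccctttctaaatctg
Myh7b: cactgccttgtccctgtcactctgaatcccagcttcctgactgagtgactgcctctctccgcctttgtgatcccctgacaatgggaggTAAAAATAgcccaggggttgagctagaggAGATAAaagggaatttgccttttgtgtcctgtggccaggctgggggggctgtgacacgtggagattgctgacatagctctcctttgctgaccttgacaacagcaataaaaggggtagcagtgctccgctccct
Myh6 and Myh7 each held the MCAT core, 206 and 201 bases before the start, which 12.6% of 32851 such windows in the mouse hold. The 250 bases before the second listed start of Myh7 (chr14:54994550-54994799) held none of the 4 motifs. Myh7b held the MEF2 core, present in 2.45% of windows, and the GATA core, present in 9.99%. No window of the 3 held the exact letters TATAAA, which 12.4% of all windows hold. The windows of Myh9 and Myh10, both called higher at 4 weeks, were searched too and are not shown. That of Myh10 held the MCAT core on the opposite strand, 7 bases before the start. That of Myh9 held the TATA box on the opposite strand, 123 bases before the start.

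Values are RPKM, reads scaled to transcript length and library size, so that levels can be compared between genes. Fold changes are differences of log2(RPKM + 0.1) between knockout and Ctrl, with standard errors (SE), from limma fitted to all genes with a mean RPKM above 1 (10885 at E10.5, 9517 at 4 weeks), and a gene was called where it differed more than 2-fold in either direction with a Benjamini-Hochberg adjusted p under 0.05. As a check of the labels, the RPKM of Med30 itself was 10.6, 13.3 and 11.3 in the E10.5 Ctrl hearts and 1.38, 2.02 and 1.004 in the cKO hearts, and 7.66, 7.45 and 7.66 in the 4-week Ctrl and 3.81, 3.16 and 1.83 in the icKO cardiomyocytes. It fell in both comparisons, by 2.96 ± 0.22 and 1.40 ± 0.23 (SE) on the log2 scale (adjusted p = 0.000367 and 0.000403). The steps between low RPKM values placed the depth at 11935000 to 20065000 reads per library. The 8 cardiomyocyte markers summed to less in the knockouts. At E10.5 the sum was 4409 to 5687 RPKM in Ctrl and 3533 to 4024 RPKM in cKO. At 4 weeks it was 15138 to 16373 RPKM in Ctrl and 8107 to 9861 RPKM in icKO. Of the 8, Tnni1 was under the filter at 4 weeks (mean 0.0673 RPKM in Ctrl and 1.52 in icKO). Of the 8 fibroblast markers 5 were tested at 4 weeks and all 5 were called higher, as were 28.0% of all genes tested. The 8 summed to 5.03 to 8.39 RPKM in Ctrl and 60.4 to 87.5 RPKM in icKO. 2 libraries stood apart in markers of other tissue. The 4-week icKO replicate 1 held transcripts that the other icKO samples nearly lacked, namely embryonic β-globin Hbb-y (4.12 RPKM against 0 and 0), slow troponin I Tnni1 (4.42 against 0.058 and 0.081) and atrial light chain Myl7 (7.30 against 0.205 and 0.715), and the E10.5 cKO replicate 1 had the most red cell RNA (Hbb-y 1257 RPKM, against 142 to 455 in the other 5 samples).

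In Ctrl hearts at E10.5 the 2 cardiac isoforms made up most of the heavy chain transcripts and Myh7 was the more abundant of them. Myh7 held 51.7% to 62.4% and Myh6 28.3% to 37.8% of the summed RPKM of the 6 genes in each of the 3 samples. By mean level the order was Myh7 (536 RPKM ± 110, SD, n = 3), Myh6 (302 ± 34.9), Myh10 (54.5 ± 6.00), Myh9 (28.1 ± 1.95), Myh7b (6.56 ± 1.23) and Myh11 (0.125 ± 0.0110), and no 2 neighbours in this order overlapped. In Ctrl cardiomyocytes of the adult, Myh6 held 98.7% to 99.3%, with a mean of 4381 ± 145 RPKM, which made it the 4th most abundant of all 20775 genes. Myh7 followed at 29.3 ± 8.53, Myh7b at 11.5 ± 2.51, Myh10 at 3.16 ± 0.310, Myh9 at 2.402 ± 0.917 and Myh11 at 0.336 ± 0.0576 RPKM, and of these neighbours only Myh10 and Myh9 overlapped. In cKO hearts Myh6 (288 ± 41.1 RPKM) lay above Myh7 (194 ± 42.8) without overlap and the rest of the order was unaltered. In icKO cells Myh6 (440 ± 101) was followed by Myh10 (23.0 ± 1.79), Myh9 (15.9 ± 1.29), Myh7 (6.99 ± 3.18), Myh11 (0.823 ± 0.323) and Myh7b (0.518 ± 0.169), the last pair with overlap. The stages differ in tissue (whole heart against isolated cells) as well as in age, and the 2 tables were made separately, so these levels are given side by side without a test.

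**Figure D1:**
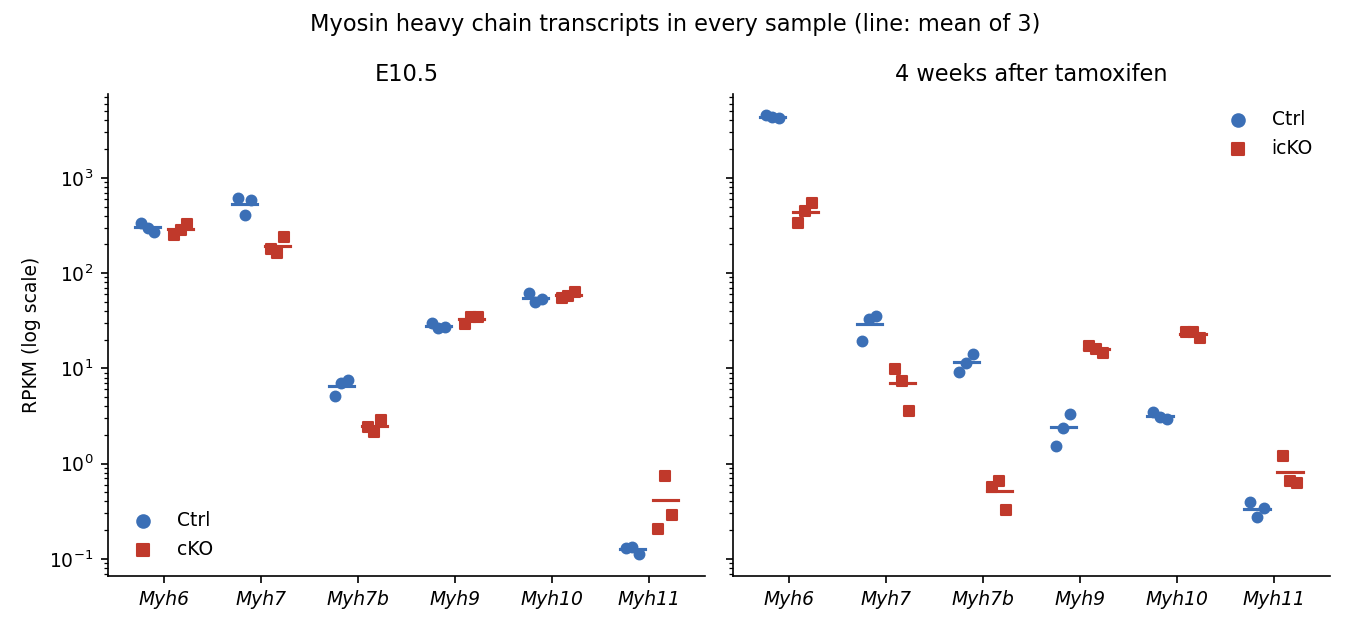
RPKM (log axis) of the 6 myosin heavy chain genes in every sample at E10.5 (left) and 4 weeks after tamoxifen (right), with Ctrl as circles, knockout as squares and a line at the mean of 3. Myh7 and Myh7b lay below Ctrl in all knockout samples of both stages, whereas Myh6 overlapped with Ctrl at E10.5 (250 to 331 against 268 to 337 RPKM) and fell from 4232 to 4522 RPKM in Ctrl to 336 to 538 RPKM in icKO.

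Of the 5 members tested at E10.5, 2 fell in the cKO hearts (Myh7 and Myh7b) and none rose, where 0.542% of all genes tested were called lower and 0.239% higher. Myh7, the main isoform of the embryonic heart, stood at 609, 410 and 589 RPKM in Ctrl and at 179, 161 and 242 RPKM in cKO. Every cKO sample was below every Ctrl sample, as was the case for 22.6% of all genes tested. The mean dropped by 63.8% (log2 fold change -1.47 ± 0.22, SE, 95% interval -1.95 to -0.98, adjusted p = 0.0162), the 25th lowest of 10885. In order of abundance Myh7 moved from 14th to 62nd among all genes.

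Myh7b fell to a like extent from a far lower level. Its RPKM was 5.16, 7.01 and 7.497 in Ctrl and 2.44, 2.15 and 2.90 in cKO, again without overlap. The log2 fold change was -1.35 ± 0.18 (95% interval -1.76 to -0.94, adjusted p = 0.0108). Within a sample log2(Myh7b/Myh7) was -6.88, -5.87 and -6.30 in Ctrl and -6.19, -6.22 and -6.38 in cKO, and the groups overlapped.

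Myh6, the α-isoform, gave no call at E10.5. Its RPKM was 337, 300.0 and 268 in Ctrl and 250, 281 and 331 in cKO, and the groups overlapped across nearly their whole range. The log2 fold change was -0.07 ± 0.17 (95% interval -0.45 to 0.31, adjusted p = 0.834) and its sign was not fixed, since it became 0.05 under median-ratio scaling, 0.24 under quantile normalization and 0.10 when the 20 most abundant genes were left out of the scaling. The interval excludes a fall of the size seen in Myh7.

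The nonmuscle chains were not called at E10.5 either. Myh9 stood at 30.3, 26.6 and 27.3 RPKM in Ctrl and 29.0, 34.7 and 34.3 RPKM in cKO, with overlap (log2 fold change 0.22 ± 0.12, 95% interval -0.04 to 0.48, adjusted p = 0.288). Myh10 stood at 61.1, 49.3 and 53.2 RPKM in Ctrl and 54.8, 58.1 and 62.6 RPKM in cKO, also with overlap (0.10 ± 0.12, 95% interval -0.17 to 0.38, adjusted p = 0.638). Both had the higher mean in cKO, and both stayed under the fold needed for a call in every scaling. In these whole hearts fewer cells of a type and less RNA per cell cannot be told apart.

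Myh11 was too low to be tested at E10.5. In Ctrl it was at 0.129, 0.134 and 0.113 RPKM, about 12 to 17 reads. In cKO it was at 0.208, 0.741 and 0.287 RPKM, about 24 to 85 reads. All cKO samples were above all Ctrl samples. That order held for 6.50% of the genes that were tested. The highest value was in cKO replicate 2, and the spread within the cKO group (SD 0.288 RPKM) was close to the difference of the means. Of the smooth muscle and mural markers, calponin Cnn1 was called higher in these hearts (52.3 ± 5.71 RPKM in Ctrl, 128 ± 12.8 in cKO, adjusted p = 0.00203), and 7 of the 8 tested had a fold change above 0. The part of such cells in the Myh11 value was not tested.

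The 2 calls at E10.5 depended on single libraries. Myh7 lost its call without Ctrl replicate 3 (adjusted p = 0.0831), cKO replicate 1 (0.0544) or cKO replicate 2 (0.0565), and Myh7b without Ctrl replicate 3 (0.0616), although the log2 fold changes stayed between -1.65 and -1.24 for Myh7 and between -1.51 and -1.10 for Myh7b over all alternatives. Neither was called when all genes were tested without an RPKM filter (adjusted p = 0.205 and 0.112).

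At 4 weeks all 5 tested members were called in the icKO cardiomyocytes. The 3 cardiac genes fell, where 8.45% of all genes tested were called lower, and the 2 nonmuscle genes rose, where 28.0% were called higher. The background at this stage was broad, with a median log2 fold change of 0.57 over all genes (0.02 after median-ratio scaling), and the split of calls turned from 804 lower and 2668 higher to 1495 lower and 1074 higher under that scaling. All 5 members were called in the same direction under each of the 4 scalings.

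Myh6 showed the largest loss in absolute terms. It stood at 4522, 4389 and 4232 RPKM in Ctrl and at 336, 446 and 538 RPKM in icKO, and the mean dropped by 89.96%, with no overlap between the groups, as for 18.9% of all genes tested. The log2 fold change was -3.34 ± 0.15 (95% interval -3.69 to -2.999, adjusted p = 3.61e-07), and over the alternatives it ranged from -3.90 to -2.71. From the 4th most abundant gene it became the 49th. Since αMHC-MerCreMer uses the Myh6 promoter, the icKO cells carried additional copies of that promoter and the Ctrl cells did not, and the part of this difference in the Myh6 value was not tested.

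Myh7b lost the largest share of its level among the 6 genes. Its RPKM was 9.12, 11.3 and 14.1 in Ctrl and 0.571, 0.654 and 0.328 in icKO, about 24 to 68 reads. The mean was 22.3 times lower, with a log2 fold change of -4.25 ± 0.24 on the scale with the pseudocount (95% interval -4.80 to -3.71, adjusted p = 8.51e-07), the 18th lowest of 9517 genes.

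Myh7 did not increase in the icKO cardiomyocytes but fell from its low adult level. It was at 19.5, 32.8 and 35.4 RPKM in Ctrl and at 9.91, 7.44 and 3.61 RPKM in icKO, with every icKO sample below every Ctrl sample. The log2 fold change was -2.12 ± 0.35 (95% interval -2.91 to -1.33, adjusted p = 0.000431). Without icKO replicate 1, the sample that held embryonic and atrial transcripts and had the highest icKO value of Myh7, it was -2.43 (adjusted p = 0.000518). The part of reads common to Myh6 and Myh7, or of reads from Mhrt, in these values was not tested, and the use of strand in counting is not given in the sources used here.

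Myh9 and Myh10 rose to similar extents. Myh9 was at 1.52, 2.34 and 3.35 RPKM in Ctrl and at 17.2, 16.0 and 14.6 RPKM in icKO (log2 fold change 2.74 ± 0.24, 95% interval 2.21 to 3.28, adjusted p = 7.44e-06). Myh10 was at 3.50, 3.07 and 2.90 RPKM in Ctrl and at 24.0, 24.1 and 21.0 RPKM in icKO (2.83 ± 0.11, 95% interval 2.58 to 3.07, adjusted p = 1.98e-07). All icKO samples were above all Ctrl samples for both, an order that 62.0% of the genes tested at this stage had. The means were 6.62 times (Myh9) and 7.29 times (Myh10) those of Ctrl, and under median-ratio scaling the log2 fold changes were 2.20 and 2.28.

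Markers of other cells were read beside these values. Over all genes tested at this stage the median log2 fold change was 0.57 and 28.0% were called higher. The 5 fibroblast markers tested had a median log2 fold change of 3.76, led by Postn (0.367 ± 0.129 RPKM in Ctrl, 24.4 ± 2.14 in icKO) and Col1a1 (0.435 ± 0.169 and 11.4 ± 3.43). All 7 endothelial markers tested had a log2 fold change above 0 (median 0.89). After median-ratio scaling this median was 0.35, against 0.02 over all genes. 1 of the 7, Emcn, was called (1.20 ± 0.416 and 2.72 ± 0.399 RPKM, no call after median-ratio scaling). 1 of the 2 macrophage markers tested, Lyz2, was called higher, again with no call after median-ratio scaling. Of the 5 fibroblast markers, 4 were called after median-ratio scaling. The 3 fibroblast markers under the filter also had every icKO sample above every Ctrl sample, as did 62.0% of the genes tested. Their means were 0.041 and 0.462 RPKM for Tcf21, 0.266 and 0.932 for Pdgfra and 0.212 and 1.38 for Lum. Endothelial and fibroblast cells use Myh9 and Myh10, and their part in the rise was not tested.

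Myh11 stayed under the filter at 4 weeks, at 0.391, 0.276 and 0.340 RPKM in Ctrl and 1.20, 0.653 and 0.621 RPKM in icKO. All icKO samples were above all Ctrl samples, as for 62.0% of the genes tested, and the mean was 2.45 times higher. When all genes were fitted without a filter its log2 fold change was 1.04 (adjusted p = 0.0494), less than those of Myh9 and Myh10. The highest value was again in icKO replicate 1. Of the 7 smooth muscle and mural markers tested, 4 were called higher and 1 lower. The shares over all genes tested were 28.0% higher and 8.45% lower. After median-ratio scaling 3 of the markers were called higher and 1 lower. Calponin Cnn1 went from 0.167 ± 0.0920 to 254 ± 75.2 RPKM (log2 fold change 9.91). Cspg4 and Tagln had log2 fold changes of 2.20 and 1.91, and the smoothelin gene Smtn was called lower at -2.18. Acta2 was not called (48.1 ± 15.8 RPKM in Ctrl, 35.8 ± 7.60 in icKO, log2 fold change -0.39). After median-ratio scaling it was -0.95 (adjusted p = 0.00896). Of the 7, 5 had a log2 fold change above 0 and 2 below 0. The part of mural cells in the Myh11 value was not tested.

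**Figure D2:**
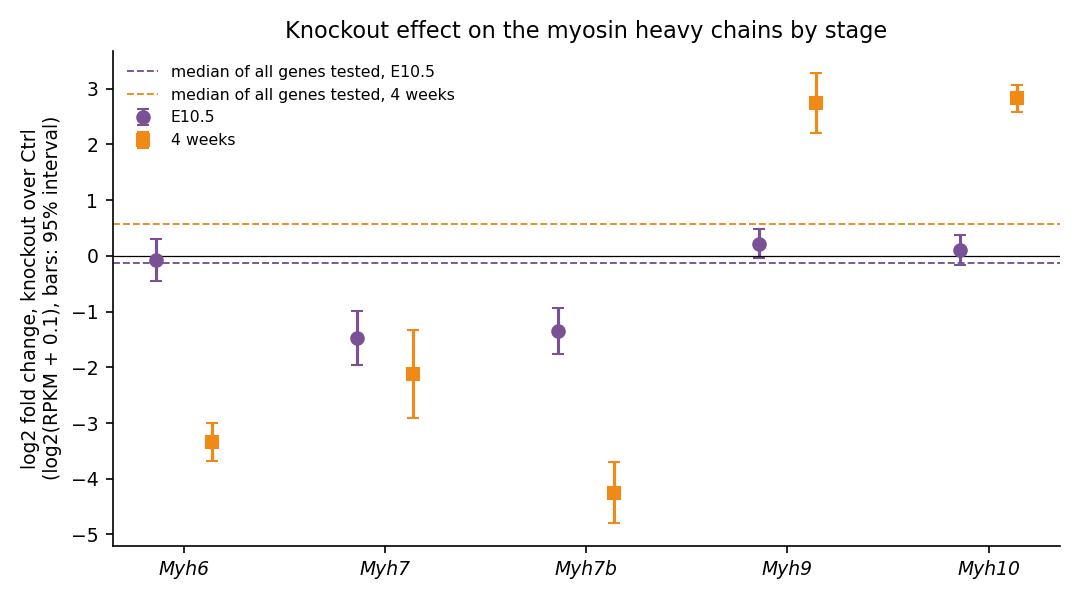
Log2 fold change (knockout over Ctrl, on log2(RPKM + 0.1)) of the 5 tested members at E10.5 (circles) and 4 weeks (squares) with 95% intervals, and dashed lines at the median of all genes tested (-0.13 at E10.5, 0.57 at 4 weeks). Myh7 and Myh7b were called at both stages, and Myh6 (-0.07 and -3.34), Myh9 (0.22 and 2.74) and Myh10 (0.10 and 2.83) at 4 weeks alone.

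The difference between the stages was tested in a fit of all 12 samples, as the knockout effect at 4 weeks minus that at E10.5 over 8909 genes. It passed an adjusted p of 0.05 for 4 of the 5 members. Myh6 (-3.27 ± 0.24 log2, adjusted p = 2.22e-07) and Myh7b (-2.90 ± 0.32, adjusted p = 5.24e-06) were more negative at 4 weeks, as were 9.29% of all genes, and Myh9 (2.53 ± 0.28, adjusted p = 5.68e-06) and Myh10 (2.72 ± 0.16, adjusted p = 4.44e-08) were more positive, as were 59.4%. For Myh7 the difference was -0.65 ± 0.45 (95% interval -1.62 to 0.32, adjusted p = 0.210), so a stronger fall at 4 weeks was not shown as the values were deposited. It passed under median-ratio scaling (-1.32, adjusted p = 0.0186) and quantile normalization (-1.46, adjusted p = 0.00817). The median difference over all genes was 0.69 before and 0.03 after median-ratio scaling. The stages differ in Cre line, tissue and time since deletion, which cannot be told apart.

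**Figure D3:**
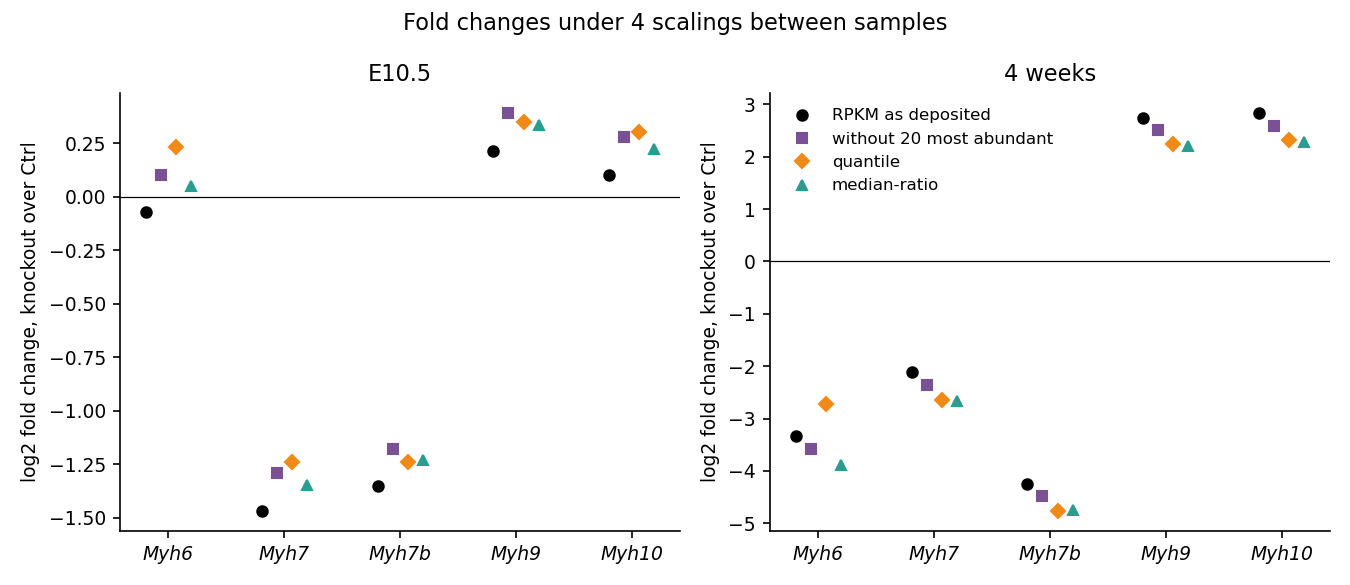
Log2 fold change (knockout over Ctrl) of the 5 tested members at E10.5 (left) and 4 weeks (right), with RPKM as deposited (circles) and after 3 other scalings between samples (other symbols). Only Myh6 at E10.5 changed sign, from -0.07 to between 0.05 and 0.24, and the vertical axes differ between the panels.

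Ratios within a sample do not depend on the scaling between samples. 9 ratios or shares were compared at each stage with an exact two-sided permutation test of 3 against 3, whose smallest possible p is 0.1, so none of the 18 could pass 0.05 and the values serve as a description. The groups did not overlap for 6 of the 9 at either stage, each with an exact p = 0.1 (adjusted p = 0.15 over the 18).

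The order of the 2 cardiac isoforms differed between the groups at E10.5. Log2(Myh6/Myh7) was -0.85, -0.45 and -1.14 in Ctrl and 0.48, 0.81 and 0.45 in cKO. Myh7 was thus the more abundant isoform in every Ctrl sample and Myh6 in every cKO sample. The mean difference was 1.40 (means -0.81 ± 0.35 and 0.58 ± 0.20, SD, n = 3 each), a 2.63-fold change of the ratio. Ventricular markers were lower in the same hearts. All 4 had a log2 fold change below 0 (median -1.20, against -0.13 over all genes), and Irx4 (-1.32, adjusted p = 0.00173) and Hey2 (-1.32, adjusted p = 0.000464) were called lower, also after median-ratio scaling. The 3 atrial markers tested also had log2 fold changes below 0 (median -0.51), and none of them was called. The part of ventricular cells in the Myh7 value was not tested. As a share of both isoforms, Myh7 was 64.4%, 57.7% and 68.8% in Ctrl and 41.7%, 36.3% and 42.2% in cKO.

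At 4 weeks the same ratio did not separate the groups. It was 7.86, 7.06 and 6.90 in Ctrl and 5.08, 5.90 and 7.22 in icKO, where replicate 3 lay within the range of Ctrl (exact permutation p = 0.3, adjusted p = 0.36). The share of Myh7 in both was 0.430%, 0.742% and 0.830% in Ctrl and 2.87%, 1.64% and 0.666% in icKO. The 2 highest shares came with lower Myh7 RPKM than in any Ctrl sample. The overlap came from icKO replicate 3. The difference of the log2 ratio was -1.20, with -0.71 when icKO replicate 1 and -1.78 when icKO replicate 3 was left out.

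Some other cardiomyocyte markers were called lower beside the cardiac myosin genes. At E10.5 this was 1 of 8 (Pln, log2 fold change -1.61), and at 4 weeks 4 of 7, namely Pln (-4.56), Ryr2 (-2.84), Tnni3 (-2.12) and Actc1 (-1.02). Over all genes tested, 0.542% were called lower at E10.5 and 8.45% at 4 weeks. Actn2 (log2 fold change 0.86, adjusted p = 2.48e-05) and Tnnc1 (0.37, adjusted p = 0.00847) had higher means in icKO at 4 weeks. Both were under the fold needed for a call, and after median-ratio scaling they were 0.31 and -0.18. Tnnt2, the reference of the ratios below, was not called at either stage as deposited. After median-ratio scaling it was called lower at 4 weeks (log2 fold change -1.30, adjusted p = 1.82e-05), as 1 of 5 such markers. Ratios to it are not ratios to cardiomyocyte transcripts at large. Against Tnnt2, Myh7 and Myh7b lay below Ctrl without overlap at both stages and Myh6 at 4 weeks. Log2(Myh7/Tnnt2) was -0.82, -0.63 and -0.70 in E10.5 Ctrl and -1.67, -1.92 and -1.61 in cKO, a difference of -1.02, and Tnnt2 itself was not called (log2 fold change -0.45, adjusted p = 0.297). Log2(Myh7b/Tnnt2) differed by -0.93 at E10.5, without overlap, and log2(Myh6/Tnnt2) by 0.38 with overlap (-1.68, -1.08 and -1.84 in Ctrl against -1.19, -1.11 and -1.16 in cKO). At 4 weeks the differences were -2.59 for Myh6, -1.39 for Myh7 and -3.77 for Myh7b, each without overlap. As deposited, Tnnt2 had a log2 fold change of -0.75 there (adjusted p = 0.000412), under the fold needed for a call. Log2(Myh7b/Myh7) at 4 weeks was -1.10, -1.54 and -1.33 in Ctrl and -4.12, -3.51 and -3.46 in icKO, again without overlap.

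**Figure D4:**
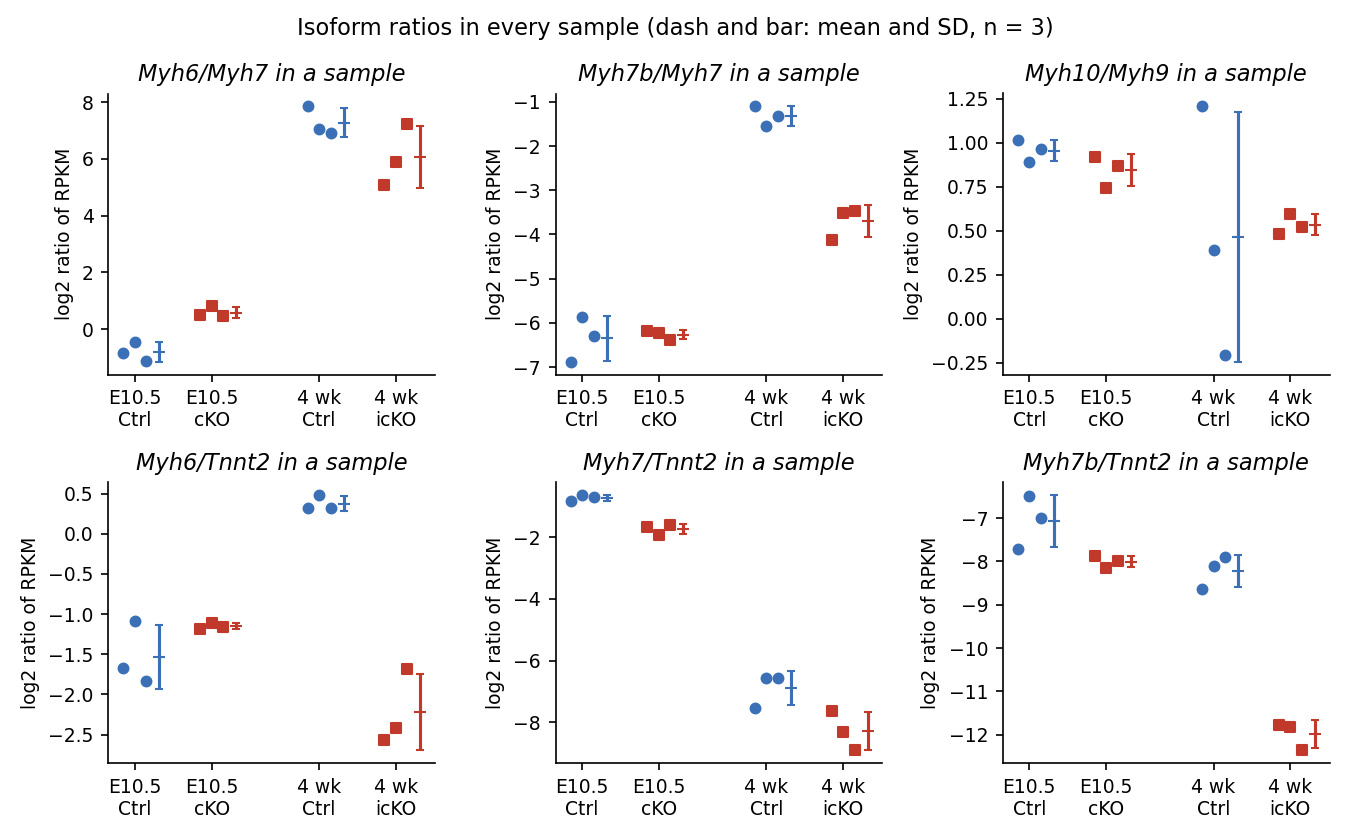
Log2 ratios of RPKM within each sample for 6 pairs of genes at both stages, with Ctrl as circles, knockout as squares and the mean with its SD (n = 3) beside each group. Myh6/Myh7 crossed 0 between E10.5 Ctrl and cKO, Myh7b/Myh7 overlapped at E10.5 and separated at 4 weeks, and Myh10/Myh9 overlapped at both stages.

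The ratio of the 2 nonmuscle chains overlapped between groups at both stages. Log2(Myh10/Myh9) was 1.01, 0.89 and 0.96 in Ctrl and 0.92, 0.74 and 0.87 in cKO at E10.5, a difference of -0.11 with overlap. At 4 weeks it was 1.21, 0.39 and -0.21 in Ctrl and 0.48, 0.60 and 0.52 in icKO, a difference of 0.07 whose sign turned to -0.26 without Ctrl replicate 3. The wide spread in Ctrl came with few reads of Myh9, about 149 to 423. Log2(Myh11/Myh9) was higher by 1.28 in cKO at E10.5 and lower by 1.56 in icKO at 4 weeks, each without overlap, and it rests at E10.5 on the low Myh11 counts given above. The E10.5 difference was 0.80 without cKO replicate 2 and 0.83 as a ratio of RPKM + 0.1.

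As a share of the summed RPKM of the 6 genes, Myh9 and Myh10 together made up 8.76%, 9.57% and 8.52% in E10.5 Ctrl and 16.3%, 17.3% and 14.4% in cKO, although neither nonmuscle gene was called there. At 4 weeks the share was 0.110%, 0.122% and 0.146% in Ctrl and 10.6%, 8.11% and 6.15% in icKO, where the cardiac genes had dropped and the nonmuscle genes had risen. The summed RPKM itself was 793 to 1043 in E10.5 Ctrl and 515 to 673 in cKO, and 4288 to 4556 in adult Ctrl and 388 to 578 in icKO.

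**Figure D5:**
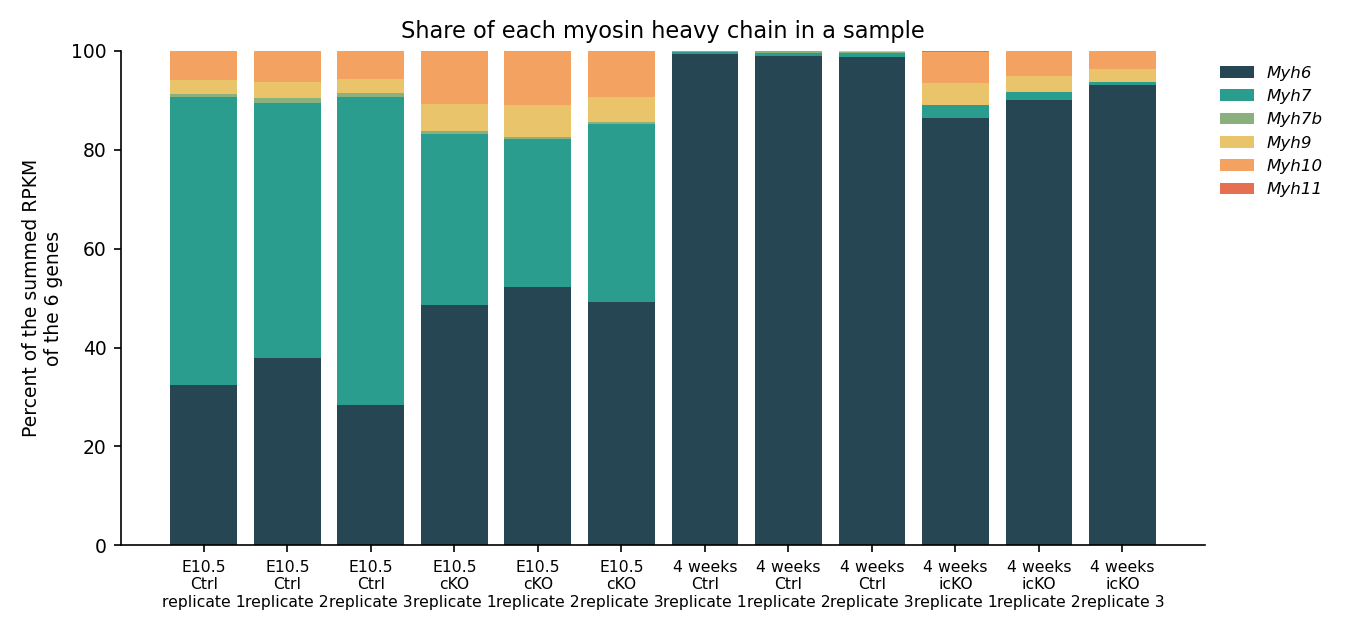
Percent of the summed RPKM of the 6 myosin heavy chain genes held by each gene in every sample. Myh7 (51.7% to 62.4%) led in all E10.5 Ctrl samples and Myh6 (48.5% to 52.3%) in all cKO samples. Myh6 held 98.7% to 99.3% in adult Ctrl and 86.4% to 93.1% in icKO.

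The remaining myosin heavy chains of the tables gave no call. Of 10 such genes, the sarcomeric skeletal and embryonic forms Myh1, Myh2, Myh3, Myh4, Myh8 and Myh13 stayed under 0.08 RPKM in every sample, and Myh15 was at 0 in all. Myh14, the nonmuscle chain IIC, was at 0.166 ± 0.0542 RPKM in E10.5 Ctrl and 0.106 ± 0.0327 in cKO, and at 16.6 ± 2.38 and 20.3 ± 1.06 RPKM in adult Ctrl and icKO, so it was the most abundant nonmuscle chain in every adult Ctrl sample, and Myh10 was above it in every icKO sample. The log2 fold change of Myh14 at 4 weeks was 0.30 (adjusted p = 0.0384) as deposited and -0.25 (adjusted p = 0.0650) after median-ratio scaling. The unconventional chains Myo18a (log2 fold changes 0.20 and 0.29) and Myo18b, a muscle protein of the sarcomere (0.54 and 0.53, adjusted p = 0.0327 and 0.000148), had higher means in knockout at both stages and missed the fold threshold, and at 4 weeks both changed sign under median-ratio scaling (-0.26 and -0.02).

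Of the proteins that work with the heavy chains, none of the 5 sarcomeric and 5 nonmuscle or smooth muscle light chains was called at E10.5. The ventricular light chain Myl2 had a log2 fold change of -1.08 there (adjusted p = 0.0734, and -0.95 with adjusted p = 0.0335 after median-ratio scaling), and the difference between the stages was not tested for these genes. At 4 weeks the ventricular light chains Myl3 (log2 fold change -1.45, adjusted p = 2.21e-05) and Myl2 (-1.23, adjusted p = 4.42e-05) fell, the embryonic and atrial light chain Myl4 rose from 1.36 ± 0.274 to 10.1 ± 5.35 RPKM (2.70, adjusted p = 4.77e-05, with 16.3 RPKM in icKO replicate 1 against 7.87 and 6.31 in the other icKO samples), and 2 of the sarcomeric list were not called. Of the nonmuscle and smooth muscle light chains, Myl6 (2.81, adjusted p = 1.005e-07) and Myl9 (2.33, adjusted p = 8.76e-05) rose and 3 were not called. Among all genes tested at 4 weeks, 8.45% were called lower and 28.0% higher.

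The list of thick filament partners had no call among 6 tested at E10.5. At 4 weeks 1 of 7 fell, the M-band protein Myom2 (297 ± 44.4 RPKM in Ctrl, 48.7 ± 37.1 in icKO, log2 fold change -2.86, adjusted p = 0.000223), and 1 rose, the skeletal-type myosin-binding protein Mybpc2 (2.498, adjusted p = 1.26e-07). Its median was -0.57, against 0.57 over all genes. Of all genes tested, 0.542% were called lower at E10.5, and 8.45% lower and 28.0% higher at 4 weeks. Among 11 genes for the folding and turnover of myosin, the ubiquitin ligase Fbxo32 alone was called at E10.5 (9.90 ± 0.717 and 3.82 ± 0.605 RPKM, -1.36, adjusted p = 0.00280). At 4 weeks the ubiquitin ligase Trim63 fell (-1.11, adjusted p = 2.98e-05) and the chaperone Hsp90aa1 rose (14.3 ± 1.23 and 164 ± 15.03 RPKM, 3.51, adjusted p = 8.11e-08), while the other 9 were not called.

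Of the known regulators of the cardiac myosin genes, none of 27 tested was called at E10.5. At 4 weeks 2 of 25 fell, the coactivator Ppargc1a (-1.90, adjusted p = 9.58e-07) and the T-box factor Tbx5 (-1.65, adjusted p = 2.37e-05), and 4 rose, led by Tbx20 (1.51, adjusted p = 1.34e-05), the myocardin-related factor Mkl1 (1.42, adjusted p = 5.83e-05) and the Mediator kinase subunit Med13 (1.17, adjusted p = 7.86e-06). Over all genes tested at 4 weeks, 8.45% were called lower and 28.0% higher. After median-ratio scaling 4 of the regulators were called lower and 0 higher. The MEF2, GATA and TEAD factors of the list gave no call where they were tested, and Tead4 was under the filter at 4 weeks (0.122 and 0.428 RPKM). Mef2a stood at 24.6 to 29.5 RPKM in 4-week Ctrl and 40.8 to 47.2 RPKM in icKO (log2 fold change 0.70, adjusted p = 0.000141, and 0.15 with adjusted p = 0.163 after median-ratio scaling), under the fold needed for a call. Tead1 was at 29.4 to 30.3 RPKM in E10.5 Ctrl and 27.5 to 31.1 in cKO, and at 34.3 to 36.6 and 35.1 to 42.9 RPKM at 4 weeks.

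For each tested member the genes most alike were found as those with the smallest root mean square difference of their log2 profile over the 6 samples of a stage, centred on Ctrl. This is a description, and genes that moved by a like amount come first. At E10.5 they were Cend1, Tnnt3 and Cited1 for Myh7 (differences 0.161 to 0.191) and Irx4, Tomm20l and Fbxo32 for Myh7b (0.105 to 0.132). For the members that were not called they were Ppp2r5d, Mcm9 and Nup88 (Myh6), Arhgap21, Man1b1 and Brd1 (Myh9) and Add1, Map4k4 and Kctd5 (Myh10). At 4 weeks Wnk2, Rpl3l and Gpr155 were closest to Myh6 (0.123 to 0.158) and Tmem82, Adamts7 and A530016L24Rik to Myh7b (0.230 to 0.271). Gm826, Sars2 and Yjefn3 were closest to Myh7 (0.309 to 0.377), Fbln2, Lrp11 and Tubg2 to Myh9 (0.128 to 0.154) and Hbegf, Rnf19b and Creb3 to Myh10 (0.0689 to 0.0982). No member was among the 3 closest genes of another member at either stage.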

How the data were processed

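RNA was measured in 12 mouse samples, 3 in each of 4 groups, from total RNA libraries depleted of ribosomal RNA. Reads were mapped to GRCm38, and the submitters' processing notes name cutadapt 2.6, STAR 2.5.3a, HOMER 4.11.1 and DESeq2 1.12.4. Values are RPKM as deposited by the authors, in 1 table per stage, and no counts were used. The gene annotation, the use of strand and the treatment of reads with several matches are not given in the sources used here. Columns with the authors' own fold changes, false discovery rates and mean RPKM were not used. The sample columns of the knockout in the E10.5 table bear the name icKO, and the labels and the table's stage place them in the cKO group.

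For each stage, genes whose RPKM averaged more than 1 in its 6 samples were fitted as log2(RPKM + 0.1) with limma 3.58.1 (R 4.3.3, empirical Bayes with a trend), and the Benjamini-Hochberg adjustment took in every gene fitted. All adjusted p-values of fold changes and stage differences are from limma. Ratios of RPKM within a sample were compared by exact permutation. The code was tested on simulated data. Depth was estimated from the steps of low RPKM values of genes with 1 transcript in GENCODE vM21, of which 59.6% to 68.8% came within 0.1 of a whole read, so read numbers are approximate and cover counting error only. Alternatives were 2 other pseudocounts, no filter and a filter at 5, 3 other scalings between samples, a fit without a trend, a replicate block and leaving out each sample.

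The 6 genes and all gene lists were chosen with earlier results of these data known. The genes named were the 6 members, the targeted gene, all other myosin heavy chains, up to 3 called genes in each direction with the largest fold changes of each list (for markers, only those beside a result), and the 3 genes most like each member and stage. Tnnt2, Tnni1, Myl7, Hbb-y, Tcf21, Pdgfra, Lum, Actc1, Actn2, Tnnc1, Acta2, Mef2a, Tead1 and Tead4, and Myl2 at E10.5, were named outside this rule, after their values were seen. The labels do not say that replicates came from separate animals, so p-values measure the spread between these samples. Coordinates are from GENCODE vM21 and sequences from RefSeq on GRCm38.p6 or GENCODE coding transcripts.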

Additional observations from a re-analysis of the deposited data

Results flagged for a closer look

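The knockout effect differed between the stages for 4 members, by the test of the difference itself in limma (4 weeks minus E10.5, log2). By the same test 9.29% of all 8909 genes were more negative at 4 weeks and 59.4% more positive. The difference was -3.27 for Myh6 and -2.90 for Myh7b, whose fold changes were both more negative in the adult cells. It was 2.53 for Myh9 and 2.72 for Myh10, which were called at 4 weeks alone. Their range over 17 settings stayed on the same side of 0, from -3.94 to -2.98 for Myh6, -3.60 to -1.93 for Myh7b, 1.85 to 2.79 for Myh9 and 1.98 to 2.80 for Myh10. Stage cannot be told apart from Cre line and from whole heart against isolated cells. Groups of 3 are too small for a test of single outlying samples.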

How the results depend on the processing

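At 4 weeks all 75 alternative fold changes of the 5 tested members kept their direction and their side of the threshold. At E10.5 the number of members called lower was 2, became 0 without an RPKM filter and 1 with a mean RPKM above 5, where Myh7b was no longer tested, and ranged from 0 to 2 when samples were left out in turn. The related genes called lower at E10.5 ranged from 1 to 2 when samples were left out. The log2 fold change of Myh6 at E10.5 was 0.049 under median-ratio scaling, 0.24 under quantile normalization and 0.10 under scaling without the 20 most abundant genes, and ranged from -0.18 to 0.024 when samples were left out. Among the ratios, log2 Myh7b/Myh7 at E10.5 ranged from -0.18 to 0.32 and log2 Myh10/Myh9 at 4 weeks from -0.26 to 0.44 when samples were left out. Median-ratio scaling gave 13 related genes lower and 5 higher at 4 weeks, against 6 and 9. Over all genes, calls ranged from 1 to 100 lower and 0 to 48 higher at E10.5 (59 and 26 as reported), and from 454 to 1495 lower and 1074 to 3288 higher at 4 weeks (804 and 2668). The cause of these shifts was not tested.

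The replicate numbers were shared between groups. Same-numbered samples deviated together with r of 0.01, 0.10 and -0.07 at E10.5 and 0.15, 0.04 and 0.05 at 4 weeks. With 3 samples per group these values cannot show whether samples were paired, and the main fits used no pairing. With a replicate block the members called were again 2 lower and 0 higher at E10.5 and 3 lower and 2 higher at 4 weeks, and over all genes 61 lower and 32 higher at E10.5 and 805 and 2672 at 4 weeks.

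Depth limits Myh11 most, with about 12 to 17 reads in E10.5 Ctrl, where 3 reads correspond to 0.0228 to 0.0289 RPKM, and Myh7b in icKO, with about 24 to 68 reads.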
